A study of Mus musculus with 6 samples.

Results

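Ttr and 9 further genes of the choroid plexus epithelium were followed through 6 brain RNA-seq libraries. The 10 genes, Ttr, Sostdc1, Clic6, Kl, Folr1, Kcne2, Aqp1, Otx2, Kcnj13 and Enpp2, are 10 of the 54532 genes listed with an FPKM value, and each was found by matching its Ensembl identifier to GENCODE M21. They were selected on these FPKM values, with the levels and genotype differences of these same libraries already known, so their genotype differences are given as a description and not as independent evidence.

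The study compared the brains of Angptl2+/+ and Angptl2-/- mice on a C57BL/6 background at postnatal day 15, with 3 libraries per genotype, to ask which genes depend on the secreted protein ANGPTL2. In the knockout, exon 2 of Angptl2 lay between loxP sites and was removed in the male germ line by a Cre recombinase under Stra8, and such males were bred with wild-type females. The labels give brain with all its cell types as the source, and the way the brains were dissected is not given in the sources used here. They do not say whether the libraries of a genotype came from separate mice or litters, so the errors below measure the spread between libraries.

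The choroid plexus is a folded epithelium around capillaries that hangs into the brain ventricles and secretes cerebrospinal fluid. Its cells move ions and water from blood to ventricle, form the blood to cerebrospinal fluid barrier and release carrier proteins and signals into the fluid. Ttr encodes transthyretin, a carrier of thyroxine and of retinol-binding protein, and is one of the most abundant transcripts of these cells. In a brain sample with many cell types the plexus is a small part of the tissue. Fewer plexus cells in a sample and less of a transcript in each cell cannot be told apart in such data.

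The libraries held 17127276 to 18928921 fragments assigned to genes, recovered from the FPKM values, and 14862 genes had a mean FPKM of at least 0.5 and were tested. Angptl2 was measured at 0.660, 0.958 and 0.290 FPKM in the Angptl2+/+ libraries and at 0.166, 0.320 and 0.126 FPKM in the Angptl2-/- libraries, replicates 1 to 3 in each. Its levels overlapped between genotypes, and a whole-gene FPKM does not isolate exon 2. Each genotype held libraries with and without Xist, the RNA of the inactive X chromosome in females. In Angptl2-/- only replicate 2 had it above 1 FPKM (42.2), whereas Angptl2+/+ replicates 1 and 2 had 27.4 and 27.9 FPKM. Sex and genotype were therefore unequally mixed, and the part of sex in the results below was not tested. The summed level of 8 cerebellar markers was 101 FPKM in Angptl2+/+ replicate 1 and 11.1 to 27.0 FPKM in the other 5 libraries.

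Ttr was high in all 3 Angptl2-/- libraries and low in all 3 Angptl2+/+ libraries. Transthyretin mRNA, from a gene at 20665280 to 20674321 on the forward strand of chromosome 18 (GRCm38), was measured at 2.34, 4.29 and 0.580 FPKM in Angptl2+/+ replicates 1, 2 and 3. In Angptl2-/- replicates 1, 2 and 3 it was measured at 141, 916 and 99.6 FPKM. These values rest on 50, 90 and 12 fragments in Angptl2+/+ and on 3216, 18334 and 1935 fragments in Angptl2-/-, so counting error is small beside the distance between the genotypes. The lowest Angptl2-/- library stood 22.7-fold above the highest Angptl2+/+ library (on FPKM + 0.1), the widest such distance of the 14862 genes tested. The spread within Angptl2-/- was also wide, since replicate 2 stood 6.48-fold above replicate 1 and 9.20-fold above replicate 3.

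The group means of Ttr were 2.41 ± 1.86 FPKM (SD, n = 3) in Angptl2+/+ and 386 ± 460 FPKM (SD, n = 3) in Angptl2-/-. On the scale of log2(FPKM + 0.1) the difference was 6.92 with a standard error of 0.95, the largest of all genes tested, and the next largest was 4.73. Its adjusted p was 0.273 (limma, Benjamini-Hochberg over all genes tested), a value that no gene went below. No gene passed the adjusted threshold of 0.05 in either direction, so 0% of the 14862 genes were called, and limma with voom weights on the recovered fragments called 0 as well. At an unadjusted p under 0.05 limma placed 1054 genes higher and 1355 lower in Angptl2-/-, and by p alone Ttr ranked 6.

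All 10 genes had a positive log2 difference, against 49.4% of all genes tested. Of the 10 genes, 5 were higher at an unadjusted p under 0.05, where 7.09% of all genes were, and 0 were lower, where 9.12% were. In the same 5, Ttr, Clic6, Folr1, Kcne2 and Aqp1, every Angptl2-/- library lay above every Angptl2+/+ library, as in 10.7% of all genes tested. The count of 5 depends on single libraries, since it was 2 without Angptl2-/- replicate 2 and 8 without Angptl2-/- replicate 3. The median log2 difference was 1.89 over the 10 genes and 1.71 without Ttr, beside −0.00 over all genes. Folr1, Kcne2, Aqp1 and Kcnj13 averaged under 0.5 FPKM in Angptl2+/+ and entered the test through their level in Angptl2-/-, and none of the 10 genes was lost to the filter.

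**Figure D1:**
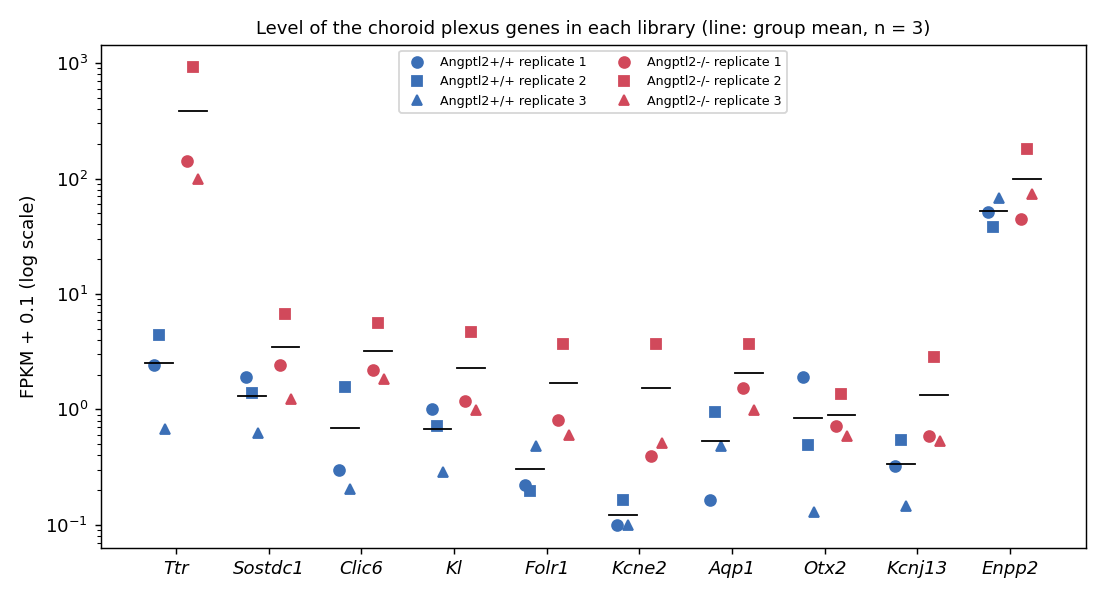
FPKM + 0.1 on a log scale for the 10 choroid plexus genes in each of the 6 libraries, with a line at each group mean (n = 3). Angptl2-/- replicate 2 (red squares) is the highest library for every gene but Otx2, and Ttr is the gene whose genotypes lie farthest apart.

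The other secreted or membrane-bound proteins that act at the surface of the plexus were less far apart. Sostdc1, a secreted antagonist of BMP and modulator of Wnt signals, was measured at 1.82, 1.30 and 0.529 FPKM in Angptl2+/+ and at 2.31, 6.65 and 1.13 FPKM in Angptl2-/-. Angptl2-/- replicate 3 lay below 2 of the Angptl2+/+ libraries, and the log2 difference was 1.19 with a standard error of 0.65. Kl encodes Klotho, a membrane co-receptor of FGF23 that is also shed into the fluid, and it was measured at 0.907, 0.615 and 0.189 FPKM in Angptl2+/+ against 1.08, 4.62 and 0.897 FPKM in Angptl2-/-. For Kl, Angptl2-/- replicate 3 and Angptl2+/+ replicate 1 were nearly level, and the log2 difference was 1.58 with a standard error of 0.69.

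Enpp2 encodes autotaxin, the secreted enzyme that makes lysophosphatidic acid, and it is also expressed by oligodendrocytes. It was the most abundant of the 10 genes in every Angptl2+/+ library, at 51.2, 37.6 and 67.7 FPKM, and was measured at 44.2, 180 and 72.7 FPKM in Angptl2-/-. Angptl2-/- replicate 2 stood 2.47-fold above the next library (FPKM + 0.1), and the other 5 libraries were mixed by genotype. Its log2 difference, 0.72 with a standard error of 0.48, was the smallest of the 10. The summed level of 8 oligodendrocyte markers ran from 749 to 1552 FPKM in Angptl2+/+ and from 487 to 1034 FPKM in Angptl2-/-. All 8 had a negative log2 difference (median −0.59), where 49.4% of all genes tested had a positive one. At an unadjusted p under 0.05 limma placed 1 of the 8 lower, beside 9.12% of all genes, so 1 among 8 is near that share. The part of oligodendrocytes in the Enpp2 level was not tested.

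Folr1 and Aqp1 serve transport across the epithelium and were low in Angptl2+/+. Folr1, the folate receptor that carries 5-methyltetrahydrofolate into the fluid, was measured at 0.122, 0.0980 and 0.385 FPKM in Angptl2+/+ and at 0.704, 3.61 and 0.505 FPKM in Angptl2-/-. The genotypes did not overlap, and the log2 difference was 2.13 with a standard error of 0.75. Aqp1, the water channel of the apical membrane, was measured at 0.0640, 0.857 and 0.381 FPKM against 0.883 to 3.56 FPKM, with Angptl2-/- replicates 1, 2 and 3 at 1.43, 3.56 and 0.883. Its genotypes were separated by a narrow gap between Angptl2+/+ replicate 2 and Angptl2-/- replicate 3, and the log2 difference was 2.06 with a standard error of 0.73.

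Averaged over all 6 libraries, the potassium channel genes Kcne2 and Kcnj13 had the lowest levels of the 10. Within Angptl2-/-, however, the mean of Otx2 was below those of both, and within Angptl2+/+ the mean of Folr1 was below that of Kcnj13. Kcne2, a regulatory subunit of potassium channels, was listed at 0 in Angptl2+/+ replicates 1 and 3 and at 0.0637 FPKM in replicate 2, from 2 fragments in all. In Angptl2-/- it was measured at 0.295, 3.59 and 0.415 FPKM, from 10, 107 and 12 fragments. The fragment rate was 64.2 times higher in Angptl2-/-, with an exact 95% interval from 17.4 to 535 that covers counting error only. Of the 10 genes, Kcne2 had the highest ratio of Angptl2-/- replicate 2 to replicate 1, at 12.2. Its log2 difference was 2.95 with a standard error of 0.94, a value that depends on the added 0.1.

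Kcnj13, the inwardly rectifying potassium channel Kir7.1 of the apical membrane, was measured at 0.221, 0.443 and 0.0464 FPKM in Angptl2+/+ and at 0.493, 2.75 and 0.433 FPKM in Angptl2-/-. Angptl2+/+ replicate 2 lay just above Angptl2-/- replicate 3, and the log2 difference was 1.71 with a standard error of 0.79. Kcnj13 lies inside Gigyf2, a gene on the opposite strand with a mean of 5.50 FPKM, and the strand setting of the counting is not given in the sources used here. Reads from overlapping genes could not be separated without strand, and the same holds for Folr1 with Anapc15 (1.08 FPKM).

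Clic6, a chloride intracellular channel protein, was measured at 0.200, 1.47 and 0.105 FPKM in Angptl2+/+ and at 2.08, 5.49 and 1.72 FPKM in Angptl2-/-. The 3 Angptl2-/- libraries lay above Angptl2+/+ replicate 2, itself far above the other 2 libraries of its group, and the log2 difference was 2.61 with a standard error of 0.79. Clic6 and Kcne2 lie on the same strand of chromosome 16, 187606 bases apart. Of the genes between them, named after their values were seen, Rcan1, a calcineurin regulator, was measured at 17.5 to 22.6 FPKM in all 6 libraries. Kcne1, a relative of Kcne2, was at or below 0.0174 FPKM. Gm46555, a transcript antisense to Rcan1, was listed at 0 in Angptl2+/+ and at 0.0785, 0.357 and 0.276 FPKM in Angptl2-/-. All its values lie under the filter of 0.5 FPKM, so it was not tested. Of all genes tested, 10.7% had every Angptl2-/- library above every Angptl2+/+ library.

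Unlike the other 9 genes, Otx2 did not have its highest level in Angptl2-/- replicate 2. This homeobox gene, needed for the choroid plexus to form and to be maintained, was measured at 1.79, 0.387 and 0.0279 FPKM in Angptl2+/+ and at 0.618, 1.26 and 0.492 FPKM in Angptl2-/-. Its highest library was Angptl2+/+ replicate 1, the library with the high cerebellar markers, and its lowest was Angptl2+/+ replicate 3, with 2 fragments. The log2 difference was 0.77 with a standard error of 0.92. It turned to −0.20 without Angptl2+/+ replicate 3 and rose to 1.74 without Angptl2+/+ replicate 1, so it depends on single libraries. Otx2 is also known in cerebellar granule cell precursors and in the midbrain, and the part of those cells in its level was not tested.

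RefSeq windows of 250 bases before an annotated transcript start (GRCm38.p6) were used for 5 of the 10 genes, 9 windows in all: Aqp1, Kcne2, Kcnj13, Kl and Otx2. Sostdc1, Clic6, Folr1 and Enpp2 had no entry, and no window was used for Ttr. A window of each potassium channel gene is shown because both transcripts were low in Angptl2+/+ (for Kcne2 1 of 2, the one at the gene start), and 1 of the 4 Otx2 windows, the one with a match below, because Otx2 is the transcription factor of the group. All 3 end at the base before the start. The first, chr16:92292139-92292388 on the forward strand, and the second, chr1:87394730-87394979 on the reverse strand, lie before the gene start that GENCODE gives. The Otx2 window, chr14:48665110-48665359 on the reverse strand, lies before an internal start of Otx2. Capitals mark TAATCC, the core bound by OTX2, or TAAACA, a core bound by forkhead factors, on either strand.
Kcne2: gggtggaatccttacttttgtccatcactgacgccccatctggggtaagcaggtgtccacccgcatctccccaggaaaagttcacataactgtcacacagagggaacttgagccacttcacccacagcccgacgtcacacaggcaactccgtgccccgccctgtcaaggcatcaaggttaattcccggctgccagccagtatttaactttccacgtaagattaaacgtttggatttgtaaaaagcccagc
Kcnj13: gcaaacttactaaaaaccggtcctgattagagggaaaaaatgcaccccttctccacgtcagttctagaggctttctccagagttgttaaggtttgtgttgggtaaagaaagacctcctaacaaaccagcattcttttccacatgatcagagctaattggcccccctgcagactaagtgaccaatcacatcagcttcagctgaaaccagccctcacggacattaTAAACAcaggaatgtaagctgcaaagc
Otx2: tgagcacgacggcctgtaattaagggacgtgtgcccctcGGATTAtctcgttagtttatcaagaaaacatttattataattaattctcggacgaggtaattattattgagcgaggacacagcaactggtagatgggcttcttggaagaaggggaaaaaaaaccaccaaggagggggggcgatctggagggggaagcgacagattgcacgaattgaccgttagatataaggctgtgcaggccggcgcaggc

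TAATCC or its reverse complement was present in 1 of the 9 windows, the printed Otx2 window, with its first base 211 bases before the start, and in 6.25% of all 32851 RefSeq windows of this length. TAAACA was present in 1 of the 9, the printed Kcnj13 window, 27 bases before the start, and in 12.0% of all windows. Another string, TGTTTAC, whose reverse complement contains TAAACA, was in 0 of the 9 and in 3.17% of all windows. These are matches of letters in the windows searched, and binding was not measured.

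Angptl2-/- replicate 2 was the highest library for 9 of the 10 genes, as it was for 10.6% of all genes tested, and in the same 9 it stood at least 2-fold above every other library (FPKM + 0.1). Otx2 was the exception. Only 0.249% of the 14862 genes tested, 37 genes, did so, a count chosen after the values were seen. Beside the 9 genes they included Cldn2, Trpv4, Steap1 and Col8a1 of a list of 37 other choroid plexus genes, and 24 genes of neither list, of which 8 were protein-coding. The 8 included 1500015O10Rik, the gene of the secreted peptide precursor augurin, which reached 15.6 FPKM there beside 0.261 to 2.54 FPKM elsewhere. Small RNAs of 3 annotated classes (miRNA, snoRNA and snRNA) made up 15 of the 37 genes, where few fragments over a short length give large steps in FPKM. Over the other libraries Folr1, Kcne2, Kcnj13, Cldn2, Trpv4 and Steap1 averaged under the filter of 0.5 FPKM. They entered the test through Angptl2-/- replicate 2, the library that this count selects.

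Angptl2-/- replicate 2 was the highest library of its genotype for all 10 genes, so without it every genotype difference had to be smaller. All 10 stayed positive. Ttr then differed by 5.94 on the log2 scale with a standard error of 0.73, against 6.92 with all libraries. Clic6 differed by 2.12, Kcne2 by 1.94, Aqp1 by 1.54 and Folr1 by 1.33. In these 4 and Ttr every Angptl2-/- library lay above every Angptl2+/+ library to begin with. Leaving out replicate 2 could not change that separation. Kcnj13 differed by 0.93, Kl by 0.87, Sostdc1 by 0.53, Otx2 by 0.41 and Enpp2 by 0.16. The median was 1.13, or 0.93 without Ttr. Of the 10 genes 2 kept an unadjusted p under 0.05, Ttr and, narrowly, Clic6 (p 0.0465, limma). Of all 14862 genes tested, 481 were higher at that threshold.

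**Figure D2:**
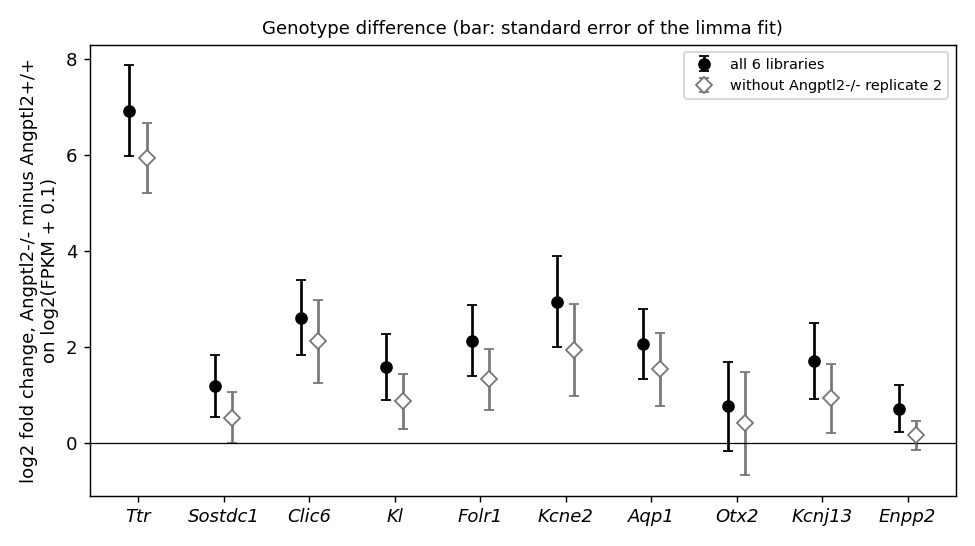
Log2 difference between genotypes (Angptl2-/- minus Angptl2+/+, on FPKM + 0.1) with the standard error of the limma fit, for all 6 libraries (filled circles) and without Angptl2-/- replicate 2 (open diamonds). Ttr moves from 6.92 to 5.94, and the other 9 genes lie between 0.72 and 2.95 with all libraries and between 0.16 and 2.12 without that library.

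Ttr was then set against the other genes within each library, which removes the depth of the library. The mean log2 level of the other 9 genes was subtracted from that of Ttr, and the result was 1.73, 2.25 and 0.53 in Angptl2+/+ replicates 1, 2 and 3. In Angptl2-/- replicates 1, 2 and 3 it was 6.50, 7.33 and 6.20. The genotypes did not overlap, and the group means differed by 5.17 on the log2 scale, with SDs of 0.88 in Angptl2+/+ and 0.59 in Angptl2-/- (n = 3 each). Ttr was thus farther from the others in each Angptl2-/- library than in any Angptl2+/+ library, replicates 1 and 3 of Angptl2-/- included.

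The same was seen on the linear scale against the summed FPKM of the other 8 genes without Enpp2, which alone exceeded their sum in every library. That sum was 5.13, 5.23 and 1.66 FPKM in Angptl2+/+ and 9.02, 31.5 and 6.47 FPKM in Angptl2-/-. Ttr was 0.457, 0.822 and 0.348 times the sum in Angptl2+/+, and 15.7, 29.0 and 15.4 times the sum in Angptl2-/-. The sum of Angptl2-/- replicate 3 was close to those of Angptl2+/+ replicates 1 and 2, yet its Ttr level was 99.6 FPKM beside 2.34 and 4.29 FPKM.

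**Figure D3:**
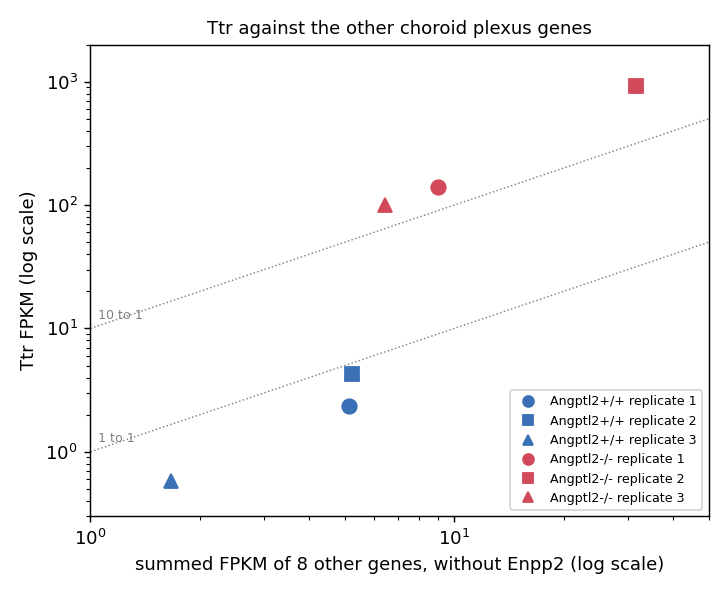
Ttr FPKM against the summed FPKM of the other 8 genes without Enpp2, both on log scales, with 1 point per library and dotted lines at ratios of 1 to 1 and 10 to 1. The 3 Angptl2+/+ libraries lie below the 1 to 1 line, and the 3 Angptl2-/- libraries lie above the 10 to 1 line, at 15.4 to 29.0.

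The level of each gene as a share of Ttr was compared among the Angptl2-/- libraries. Folr1 stood at 0.498, 0.394 and 0.507% of the Ttr FPKM in Angptl2-/- replicates 1, 2 and 3, and Kcnj13 at 0.349, 0.301 and 0.434%. The exact 95% counting intervals of the 3 libraries overlapped for both genes, for instance from 0.338 to 0.708% and from 0.331 to 0.466% for Folr1 in replicates 1 and 2. Kcne2 stood at 0.209, 0.392 and 0.416% of Ttr, and its intervals overlapped too but were wide, from 10 fragments in replicate 1 and 12 in replicate 3.

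For 5 genes the share was lower in Angptl2-/- replicate 2 than in replicates 1 and 3, and its counting interval lay below theirs. Aqp1 stood at 1.01, 0.389 and 0.887% of Ttr and Clic6 at 1.47, 0.600 and 1.72%. The others were Kl, Otx2 and Enpp2, with Kl at 0.767, 0.504 and 0.900%, Otx2 at 0.437, 0.138 and 0.494% and Enpp2 at 31.3, 19.6 and 73.0%. Sostdc1 was also lowest in replicate 2, at 1.64, 0.726 and 1.14%, but the intervals of replicates 2 and 3 overlapped.

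In Angptl2+/+ the same shares were far larger and scattered. Folr1 stood at 5.20, 2.28 and 66.3% of Ttr and Clic6 at 8.55, 34.2 and 18.2%, with wide counting intervals, since Ttr itself had 12 to 90 fragments there. The lowest share of Folr1 in Angptl2+/+, 2.28% with an interval from 0.612 to 6.08%, was above its highest share in Angptl2-/-, but the intervals overlapped, since that of Angptl2-/- replicate 3 reached 0.794%.

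Likeness to Ttr was measured as the SD over the 6 libraries of the log2 ratio to Ttr, a description in which all points share the same libraries. Of 14861 genes, Kcne2 was the 3rd and Clic6 the 4th closest, with SDs of 2.30 and 2.47 beside a median of 4.05 over all genes. Kcnj13, Aqp1, Folr1 and Kl ranked 14, 17, 19 and 22, and Sostdc1 ranked 50. Otx2 and Enpp2 were farther off at ranks 169 and 237. None of these genes came near a constant ratio to Ttr. A ratio to Ttr tends to vary less for genes that are higher in Angptl2-/-. These genes were selected with that difference known, so their ranks are not independent evidence. Folr1, Kcne2 and Kcnj13 were ranked only because Angptl2-/- replicate 2 lifted their mean past the filter of 0.5 FPKM.

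Among protein-coding genes outside the 10 with a mean of at least 1 FPKM, the closest was 1500015O10Rik, at rank 8 with an SD of 2.69. The next were Adora2a, Abi3bp, Ndst4, Rxrg, Six3, Drd2, Nmbr, Slc35d3 and Rgs9, at ranks 15 to 54. Adora2a and Drd2 encode the adenosine and dopamine receptors that mark striatal neurons, and Rgs9 a striatal regulator of G protein signals. Adora2a was measured at 1.10, 8.44 and 1.04 FPKM in Angptl2+/+ and at 6.51, 11.9 and 17.1 FPKM in Angptl2-/-, so it was highest in replicate 3 of Angptl2-/- where Ttr was lowest of its group.

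A list of 37 other genes of the choroid plexus epithelium was examined beside the 10. Of these, 23 were tested, 19 with a positive and 4 with a negative log2 difference, and their median was 0.43 beside −0.00 over all genes. At an unadjusted p under 0.05 limma placed 6 higher and 0 lower in Angptl2-/-, beside 7.09 and 9.12% of all genes, and the 6 became 3 without Angptl2+/+ replicate 2 and 0 without Angptl2-/- replicate 2. In 7 every Angptl2-/- library lay above every Angptl2+/+ library, beside 10.7% of all genes. None passed the adjusted threshold. Angptl2-/- replicate 2 was the highest library for 17 of the 23 tested genes, beside 10.6% of all genes. Cldn2, Trpv4 and Steap1 among them entered the test through that same library.

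Cab39l and Slc31a1 had the smallest p of that list. Cab39l, a scaffold protein of kinase signalling, was measured at 2.79, 3.19 and 3.33 FPKM in Angptl2+/+ and at 3.81, 6.07 and 4.24 FPKM in Angptl2-/-, without overlap. Slc31a1, a copper transporter, was measured at 9.91, 9.27 and 9.98 FPKM against 11.1, 13.8 and 12.0 FPKM, also without overlap. The most abundant genes of the list overlapped. Igfbp2, a binding protein of insulin-like growth factors, ran from 14.4 to 29.7 FPKM in Angptl2+/+ and from 11.0 to 32.5 FPKM in Angptl2-/-, and Slc12a2, the cotransporter NKCC1, from 10.8 to 15.5 and from 10.7 to 16.5 FPKM.

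**Figure D4:**
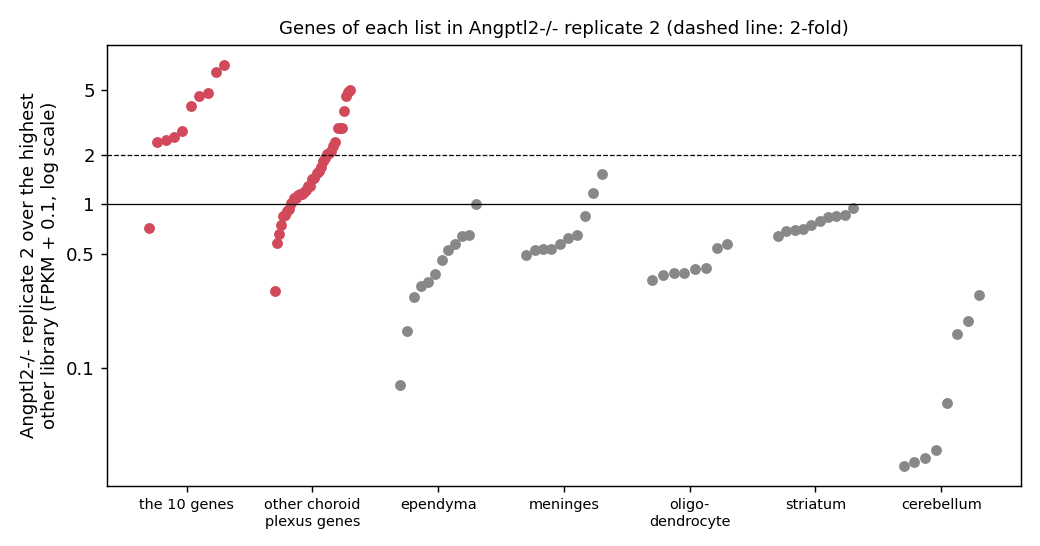
Level in Angptl2-/- replicate 2 over the highest of the other 5 libraries (FPKM + 0.1, log scale), with 1 point per gene, for the 10 genes, the 37 other choroid plexus genes and 5 marker lists of other cells or regions. The dashed line marks 2-fold, which 9 of the 10 genes exceed, beside 0.249% of all 14862 genes tested. Of the 37 other choroid plexus genes 12 exceed it, and 4 of these 12 are among the 23 tested. The rest are among the 14 untested genes, which averaged under 0.5 FPKM and for which no such share was computed. In the ependyma, meninges, oligodendrocyte, striatum and cerebellum lists 0 genes exceed it.

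Genes that work with the 10 were followed by lists. Of 20 carriers, transporters and enzymes of thyroid hormone and retinol, which surround the function of Ttr, 17 were tested, and 3 were higher at an unadjusted p under 0.05, beside 7.09% of all genes. The smallest p values were those of Crym, a thyroid hormone-binding protein, with a log2 difference of 0.62, and of Thrb, a thyroid hormone receptor, with 0.32. Thra, the most abundant of the list, had a log2 difference of −0.22. Of 11 folate genes 9 were tested, 0 were higher and 1 was lower, Shmt2 of the mitochondrial folate cycle, with a log2 difference of −0.40. Lower calls made up 9.12% of all genes, so 1 among 9 is near that share.

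Partners of the other genes gave no higher call at an unadjusted p under 0.05, and the lower calls were 1 gene per list at most, beside 9.12% of all genes. Of 9 genes around Klotho and vitamin D, 3 were tested and Fgfr3 was lower with a log2 difference of −0.49. Of 9 partners and relatives of Kcne2, 5 were tested and the glial potassium channel Kcnj10 was lower with −0.59. Of 12 BMP and Wnt genes that bear on Sostdc1, 9 were tested and Chrd, a BMP antagonist, was lower with −0.69. Of 10 receptors and phosphatases of lysophosphatidic acid, 12 other aquaporins and chloride intracellular channels and 6 relatives and neighbours of Otx2, 6, 6 and 2 were tested, and 0 were higher or lower.

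Marker lists of neighbouring cells were read beside the plexus genes. The 12 ependymal markers summed to 3.85 to 19.3 FPKM in Angptl2+/+ and to 6.59 to 8.41 FPKM in Angptl2-/-, and the 10 meningeal markers to 12.3 to 41.2 and 17.7 to 30.5 FPKM. In neither list did a tested gene have an unadjusted p under 0.05, and Angptl2-/- replicate 2 lay between the other Angptl2-/- libraries in both sums. The 8 markers of the retinal pigment epithelium, the 6 of the pineal gland and the 7 of the liver summed to 4.21 to 6.01, 0.174 to 0.493 and 1.42 to 2.53 FPKM over the 6 libraries. Mia of the ependymal list and Fgb of the liver list were at 0 in every library. Liver also expresses Ttr, and the part of any of these tissues in the Ttr level was not tested.

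Of the 10 striatal markers, 7 were higher in Angptl2-/- at an unadjusted p under 0.05, beside 7.09% of all genes, and 0 passed the adjusted threshold. Their sums overlapped narrowly, at 71.3 to 163 FPKM in Angptl2+/+ and 155 to 292 FPKM in Angptl2-/-. Of the 8 red blood cell markers, 5 were tested and all 5 were lower at an unadjusted p under 0.05, beside 9.12% of all genes, with 0 past the adjusted threshold. Their sums were 302 to 498 FPKM in Angptl2+/+ and 125 to 274 FPKM in Angptl2-/-. The part of both in the Ttr difference was not tested. The 8 endothelial markers summed to 130 to 144 and 115 to 121 FPKM, the 8 cortical markers to 349 to 530 and 386 to 453 FPKM, and the 8 hypothalamic markers to 3.98 to 49.0 and 3.89 to 19.1 FPKM, in Angptl2+/+ and Angptl2-/- respectively.

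**Figure D5:**
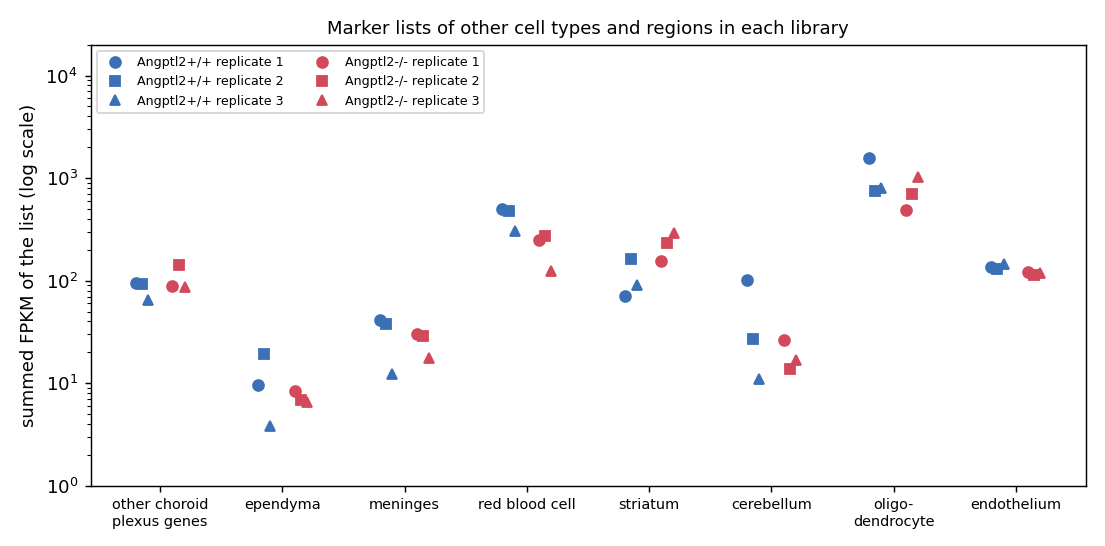
Summed FPKM of the marker lists in each library on a log scale, with 1 point per library. The other choroid plexus genes are highest in Angptl2-/- replicate 2 (141 FPKM beside 64.4 to 95.7 in the other 5 libraries), the striatal sums overlap between genotypes, the red blood cell sums are lower in Angptl2-/-, and the cerebellar sum is high in Angptl2+/+ replicate 1.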

How the data were processed

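The authors deposited 1 table of FPKM values (fragments scaled to transcript length and library size), with 1 column per brain library, from paired-end Illumina sequencing. Bowtie 0.12.2 and the build mm8 are taken from the submitters' processing notes. How fragments were counted, on which annotation and with which strand option, is not given in the sources used here. Of the 54532 identifiers 54495 were found in GENCODE M21, and all coordinates are on its build GRCm38. FPKM multiplied by exon length gave whole fragments for 96.6 to 96.8% of the values above 0 (tolerance 0.05 fragments), and libraries of 17127276 to 18928921 fragments. Exact 95% Poisson and binomial intervals from these fragments cover counting error only.

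Genotypes were compared on log2(FPKM + 0.1) by limma 3.58.1 (R 4.3.3) with an intensity trend. The 14862 genes averaging 0.5 FPKM or more were tested. Fold changes on this scale understate those of low genes. All of these genes entered the Benjamini-Hochberg adjustment, with a threshold of 0.05. The fit was tested on simulated data. Other values were computed in Python 3.11.15 with pandas 2.3.3, numpy 2.4.6 and scipy 1.17.1, and figures with matplotlib 3.10.9. GC content was that of the longest GENCODE transcript. Alternatives covered the pseudocount, the filter, the scaling, moderation, voom on recovered fragments, GC and length corrections, the replicate block and each library left out. The GC correction by transcript, the values of the 10 genes without Angptl2-/- replicate 2 and the counts of genes highest, or at least 2-fold higher, in that library were added after the data were seen, as were the 3 promoter motifs.

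The 10 genes and the gene lists were chosen with earlier results of these data known. Named beside the 10 and Angptl2 were, from each list, the 2 tested genes with the smallest p and the 2 with the highest mean FPKM, and the 10 protein-coding genes of at least 1 FPKM closest to Ttr. Xist, the neighbours and overlapping genes, and the genes named for Angptl2-/- replicate 2 were chosen after their values were seen.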

Additional observations from a re-analysis of the deposited data

How the results depend on the processing

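No setting gave the genotype comparison over all genes more than 1 call. The count was 0 in the limma fit and 1 with the replicate number as a block, where Ttr kept its log2 difference of 6.92 and reached an adjusted p of 0.0233. It ranged from 0 to 1 with each library left out, the 1 being Gapdh without Angptl2+/+ replicate 1. The labels do not say that replicate numbers pair the libraries. Deviations from the group means correlated by 0.04, −0.07 and 0.16 for numbers 1, 2 and 3. With so few libraries these values cannot decide whether equal numbers share a litter. The block changed no other adjusted call of the 10 genes. At an unadjusted p under 0.05 the block moved the 10 genes from 5 to 8 higher, by Sostdc1, Kl and Kcnj13. That count was 3 with a pseudocount of 1 and 2 to 8 with each library left out. Ttr stayed positive in all 19 alternatives, from 5.94 to 7.54, with adjusted p from 0.0233 to 0.568. The median log2 difference of the 10 genes was 1.89, and 0.90 with a pseudocount of 1. The log2 difference of Otx2 was −0.20 without Angptl2+/+ replicate 3 and up to 1.74 with another library left out, and no other gene of the 10 changed direction. The level of Ttr relative to the other 9 genes differed by 5.17, and by 6.12 against their arithmetic mean. The count of other choroid plexus genes at an unadjusted p under 0.05 was 6, with 10 without a filter, 3 with the GC correction, and from 0 (without Angptl2-/- replicate 2) to 5 with each library left out (3 without Angptl2+/+ replicate 2). The cause of these shifts was not tested. Over all genes, 465 to 1373 were higher at that threshold. Kcne2, Kcnj13, Folr1 and Aqp1 rest on the fewest fragments in Angptl2+/+ (2, 16, 24 and 60).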
